A study of Rattus norvegicus with 3 samples.

Results

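Integrins are cell surface receptors made of 1 alpha and 1 beta chain, and laminins are basement membrane proteins made of 1 alpha, 1 beta and 1 gamma chain. The genes were chosen by symbol alone: every integrin alpha or beta chain and every laminin chain among the genes listed in the count matrices. The rule found 28 of 17328 genes, 20 integrin and 8 laminin chains. A rat RefSeq gene table holds 37 symbols of the same form, and the other 9 (Itga2, Itga2b, Itga3, Itga9, Itgav, Itgax, Lama2, Lama3 and Lamb1) were not analysed here.

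RNA of single nuclei was measured in spinal cord of wild-type Sprague Dawley rats, 17 weeks old. All 3 libraries came from the centre of a spinal cord lesion, taken 49 days after the injury. The untreated group had no treatment. The scaffold group had received a scaffold and the HGF scaffold group one releasing HGF, hepatocyte growth factor, each implanted 7 days before the tissue was taken. There was 1 library per group, and the number of animals behind each was not given in the sources used here. No difference between groups therefore has a replicate check, and every interval below is a 95% interval for counting error only. In the untreated group no operation for an implant is described, so the material and the operation cannot be told apart.

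Integrins link the cytoskeleton to matrix or to other cells, and the pairing of chains sets what they bind. The beta 1 chain pairs with most alpha chains and gives receptors for collagen (alpha 1, 10 and 11), fibronectin (alpha 5) and laminin (alpha 6 and 7), while the beta 2 chain pairs with alpha L, alpha M and alpha D on leukocytes only. In the spinal cord, laminins are found in the basement membranes of vessels, the pial surface and, in the roots, Schwann cells.

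After nuclei with under 200 genes or over 5% mitochondrial UMIs were left out, 2248 untreated, 2168 scaffold and 906 HGF scaffold nuclei remained, with medians of 1408, 1639 and 1047 unique molecular identifiers (UMIs, 1 per captured RNA molecule) over the deposited nuclei. Nuclei were clustered with the integrin and laminin genes left out and clusters were named from marker lists, so that the levels below played no part in the definition of the lineages. The libraries differed in makeup: macrophage-like nuclei were 44 of the untreated nuclei (1.96%), 452 of the scaffold nuclei (20.8%) and 376 of the HGF scaffold nuclei (41.5%). The 44 untreated macrophage-like nuclei were not compared with the other libraries. Their fibroblast markers summed to 21453 CPM (UMIs scaled to a library total of 1e+06), against 2491 in scaffold macrophage-like nuclei. A cluster of 198, 127 and 57 nuclei led by RGD1564053 and Slc26a7 matched under 3 markers of any list and is called the Slc26a7 cluster. The libraries shared 3, 0 and 1 barcodes in pairs. Some nuclei may be mixtures: 273, 287 and 35 held 3 or more markers from 5 or more of 7 lineages. They made up 60, 63 and 12 of the endothelial-like and 59, 86 and 3 of the neuron-like nuclei.

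The sequences just upstream of 5 of the genes are shown because the results turn on them: Itgam, the myeloid alpha M chain, was higher in the scaffold library in every lineage compared except microglia-like nuclei; Itga10 and Itga11, collagen receptor chains, were both lower in its fibroblast-like nuclei; and Lamc1 and Lama4 were the laminin chains with the most UMIs. Each run is the 250 bases before the RefSeq start of the gene on build GRCr8, 5′ to 3′ on the strand of the gene. Capitals mark GAGGAA, letters held by many sites of the myeloid factor PU.1, GGGCGG, the GC box, and TATAAA, the TATA box, each on either strand.
Itgam (chr1:192089342-192089591, plus strand): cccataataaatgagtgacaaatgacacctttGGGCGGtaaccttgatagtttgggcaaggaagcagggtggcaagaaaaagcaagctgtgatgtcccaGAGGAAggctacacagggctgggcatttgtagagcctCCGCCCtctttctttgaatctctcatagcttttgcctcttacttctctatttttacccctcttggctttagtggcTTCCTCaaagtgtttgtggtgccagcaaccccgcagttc
Itga10 (chr2:186871461-186871710, plus strand): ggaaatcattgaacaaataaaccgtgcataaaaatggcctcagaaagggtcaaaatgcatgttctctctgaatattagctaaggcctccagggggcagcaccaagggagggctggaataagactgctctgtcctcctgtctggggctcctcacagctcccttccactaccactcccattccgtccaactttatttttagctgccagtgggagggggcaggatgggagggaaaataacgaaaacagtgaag
Itga11 (chr8:72041182-72041431, plus strand): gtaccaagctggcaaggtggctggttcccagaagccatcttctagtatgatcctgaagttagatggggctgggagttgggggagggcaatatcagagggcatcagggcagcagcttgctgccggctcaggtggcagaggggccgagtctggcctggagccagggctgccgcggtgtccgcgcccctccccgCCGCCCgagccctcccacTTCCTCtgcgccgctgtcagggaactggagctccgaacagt
Lamc1 (chr13:68051987-68052236, minus strand): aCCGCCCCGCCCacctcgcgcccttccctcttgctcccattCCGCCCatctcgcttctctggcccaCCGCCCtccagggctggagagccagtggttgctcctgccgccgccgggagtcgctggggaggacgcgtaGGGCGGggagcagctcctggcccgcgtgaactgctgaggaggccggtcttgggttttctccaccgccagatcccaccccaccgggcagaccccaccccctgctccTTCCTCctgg
Lama4 (chr20:43946648-43946897, plus strand): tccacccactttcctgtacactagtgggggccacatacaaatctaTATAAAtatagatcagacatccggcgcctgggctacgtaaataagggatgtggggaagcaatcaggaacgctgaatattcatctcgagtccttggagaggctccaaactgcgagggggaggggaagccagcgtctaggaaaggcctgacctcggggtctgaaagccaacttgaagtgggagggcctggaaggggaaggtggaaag
The Itgam window held the PU.1 letters in 2 places and the GC box in 2. The Itga10 window held none of the 3 motifs, and that of Itga11 held the PU.1 letters and the GC box 1 time each. The Lamc1 window held the GC box in 5 places, of which the first 2 overlap by 1 letter, and the PU.1 letters in 1, while the Lama4 window held the TATA box in 1. Of 33469 promoter windows of this length in the RefSeq table, 23.3% held the PU.1 letters, 30.5% the GC box and 12.9% the TATA box. Among the 19 integrin and laminin genes with an entry, 9 held the PU.1 letters, 8 the GC box and 2 the TATA box. TGANTCA, the AP-1 site, was in 6.34% of all windows and in 0 of the 19. These are matches of letters and not measured binding.

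Of the 28 genes, 24 had at least 20 UMIs in the 3 libraries together and 19 had at least 20 in each. Among the other 4 were Itgad, a beta 2 partner of macrophages, with 4 untreated, 4 scaffold and 5 HGF scaffold UMIs; Itgb7, a lymphocyte chain, with 5, 7 and 4; and Lamb3, an epithelial laminin chain, with 3, 0 and 0. For the 19 genes, the lineage with the highest level was found in each library alone, over the 10 lineages with at least 15 nuclei in every library. Levels are given as CPM, UMIs of the gene over all UMIs of that lineage and library, scaled as above. They can be compared between lineages and libraries, but not between genes, because counting from the 3′ end depends on the gene.

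**Figure D1:**
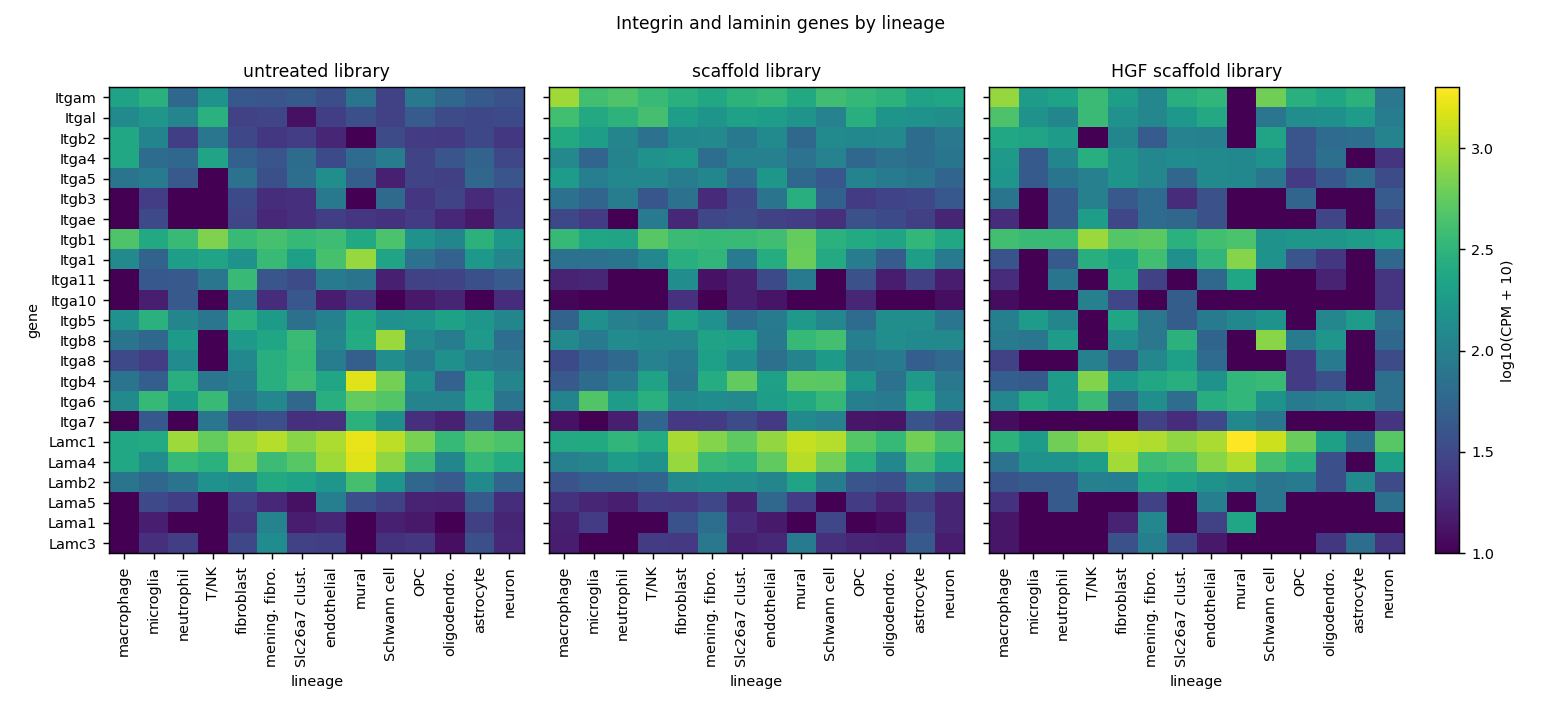
Level of 23 integrin and laminin genes (rows) in 14 lineages (columns) in the 3 libraries (panels), as log10(CPM + 10) on 1 colour scale. Itgam and Itgal are brighter across nearly all columns in the scaffold and HGF scaffold panels, and Lamc1 and Lama4 are bright from fibroblast to Schwann cell in all 3; several HGF scaffold columns rest on under 50 nuclei.

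The same lineage was highest in all 3 libraries for 6 of the 19 genes: Itgb2 in macrophage-like nuclei, Itga11 and Itgb5 in fibroblast-like, Lama5 in endothelial-like, Lamb2 in meningeal fibroblast-like nuclei and Itgb4 in the Slc26a7 cluster. In the HGF scaffold library the orders of Itgb2, Itgb4, Itgb5, Lama5 and Lamb2 were within counting error. Itgb2 was 227 CPM in macrophage-like and 211 in microglia-like nuclei (6 UMIs). Itgb4 was 273 CPM in the Slc26a7 cluster and 232 in meningeal fibroblast-like nuclei. Itgb5 was 213 CPM in fibroblast-like and 176 in the 35 microglia-like nuclei. Lama5 was 85.5 CPM in endothelial-like (51.5 to 133) and 60.1 in neuron-like nuclei (19.5 to 140). Lamb2 was 232 CPM in meningeal fibroblast-like nuclei (123 to 396) and 188 in the Slc26a7 cluster (115 to 291). In the scaffold library Lamb2 was 130 (94.1 to 175) and 126 CPM (91.2 to 171) in these 2 lineages. Scaffold Lama5 was 48.1 CPM in endothelial-like (34.3 to 65.4) and 21.2 in meningeal fibroblast-like nuclei (8.51 to 43.6), intervals that overlap. Untreated Lama5 intervals in endothelial-like and astrocyte-like nuclei also overlapped (68.2 to 111 and 15.1 to 68.7). Scaffold Itgb2 was 239 CPM in macrophage-like and 179 in microglia-like nuclei. The untreated rank of Itgb2 rests on 10 UMIs in the 44 macrophage-like nuclei with high fibroblast markers. Itga11, a receptor chain for fibrillar collagen, had the widest gap to the next lineage of the 19 genes in each library, 4.23, 4.57 and 4.85 times. Its level in fibroblast-like nuclei was 344 untreated, 123 scaffold and 240.1 HGF scaffold CPM, and in untreated nuclei the next lineage, endothelial-like, had 81.3. Itgb5, a chain that pairs with alpha V on vitronectin, had 287, 198 and 213 CPM in fibroblast-like nuclei. In the untreated library microglia-like nuclei had nearly as much Itgb5, 285 CPM (interval 213 to 373 against 249 to 328), and the order of the 2 lineages is within counting error.

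Among the receptors for laminin, Itga6 was highest among the ranked lineages in microglia-like nuclei in the untreated and scaffold libraries, with 334 (255 to 429) and 467 CPM (356 to 601). Endothelial-like nuclei followed in the untreated library, with 271 CPM (236 to 310). In the HGF scaffold library endothelial-like nuclei had 261 CPM and microglia-like nuclei 246 (7 UMIs), which do not differ beyond counting error. The smaller lineages held more: Itga6 was 545 CPM in untreated mural-like nuclei, the contractile cells of vessel walls, and 469 CPM in untreated Schwann-like nuclei. Within the Schwann lineage, Itga6 was 695 CPM in the cluster led by Pmp22 and Prx, genes of the myelin sheath, and 229.7 CPM in the cluster led by Scn7a, with intervals of 532 to 893 and 138 to 359. Itgb4, which pairs with alpha 6, was 1529 CPM in untreated mural-like and 645 CPM in untreated Schwann-like nuclei, against 376, 545 and 273 CPM in the Slc26a7 cluster in the order untreated, scaffold and HGF scaffold. Mural-like Itgb4 was 516 CPM in the scaffold library (32 UMIs) and 325 in the HGF scaffold library (3 UMIs). Mural-like and Schwann-like nuclei were too few in the HGF scaffold library, 8 and 14, to enter the ranking. Itga7, the other laminin receptor chain, was 292 CPM in untreated mural-like and 129 CPM in untreated Schwann-like nuclei, and at most 34.9 CPM in the 9 untreated lineages with more nuclei than these.

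Itgb1, the common partner chain, had UMIs in each ranked lineage of every library. In the untreated library it ran from 103 CPM in oligodendrocyte-like to 449.7 CPM in macrophage-like nuclei (20 UMIs) over the 10 ranked lineages. In the scaffold library endothelial-like nuclei were highest with 386 CPM (345 to 430), and fibroblast-like nuclei, with 363 CPM (303 to 431), did not differ from them beyond counting error. Itga1, a collagen and laminin receptor chain, was 418 CPM in untreated endothelial-like and 355 CPM in meningeal fibroblast-like nuclei, and 877 CPM in untreated mural-like nuclei. Itgb8, which pairs with alpha V and activates latent TGF-beta, was 897 CPM in untreated Schwann-like nuclei. It was 1524 CPM in the Scn7a cluster (1269 to 1814) and 308 CPM in the myelin cluster (203 to 448), the reverse of the order for Itga6. Itga8, a receptor chain for nephronectin, was 337 CPM in the untreated Slc26a7 cluster and 269.6 CPM in meningeal fibroblast-like nuclei. Within the oligodendrocyte lineage Itga8 was 293 CPM in the smaller cluster, led by LOC365985 and Ppp2r2b, and 70.05 CPM in the larger one.

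The laminin chains were highest in vessel, fibroblast and Schwann lineages. Lamc1, the gamma chain of most laminins, was found in every lineage, from 225 CPM in macrophage-like to 1661 CPM in mural-like untreated nuclei. Endothelial-like nuclei had 1038, 836 and 1012 CPM in the order untreated, scaffold and HGF scaffold, and meningeal fibroblast-like nuclei 1107, 735 and 1051. Lama4, an alpha chain of vessel and nerve basement membranes, was 919.9 CPM in untreated endothelial-like, 751 in fibroblast-like and 821 in Schwann-like nuclei, and 1529 CPM in mural-like nuclei. In the scaffold and HGF scaffold libraries fibroblast-like nuclei ranked above endothelial-like nuclei for Lama4, with 877 against 535 and 939.9 against 765 CPM; the intervals did not overlap in the scaffold library (783 to 980 and 486 to 587) and did in the HGF scaffold library (789 to 1111 and 654 to 889).

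Lama5, the other main vascular alpha chain, was 87.7, 48.1 and 85.5 CPM in endothelial-like nuclei, and the next lineage, astrocyte-like, had 34.9 CPM in the untreated library. Lamb2, a beta chain of vessel, pial and synaptic laminins, was 239.5 CPM in meningeal fibroblast-like and 207 CPM in the Slc26a7 cluster of the untreated library, 2 values whose intervals overlap (202 to 282 and 163 to 258). Mural-like nuclei, outside the ranking, had more Lamb2, 412 CPM untreated (280 to 585) and 209.7 scaffold (112 to 359). Lama1 and Lamc3, chains known from the meninges, were 97.1 and 122 CPM in untreated meningeal fibroblast-like nuclei. In the untreated library both were higher in the cluster led by Slc6a20 and Slc6a13 (128 and 168 CPM) than in the cluster led by Ptgds and Ccl21 (66.7 and 76.7 CPM). For Lamc3 the 2 intervals did not overlap (125 to 222 and 48.6 to 115), and for Lama1 they did (90.4 to 175 and 40.7 to 103).

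**Figure D2:**
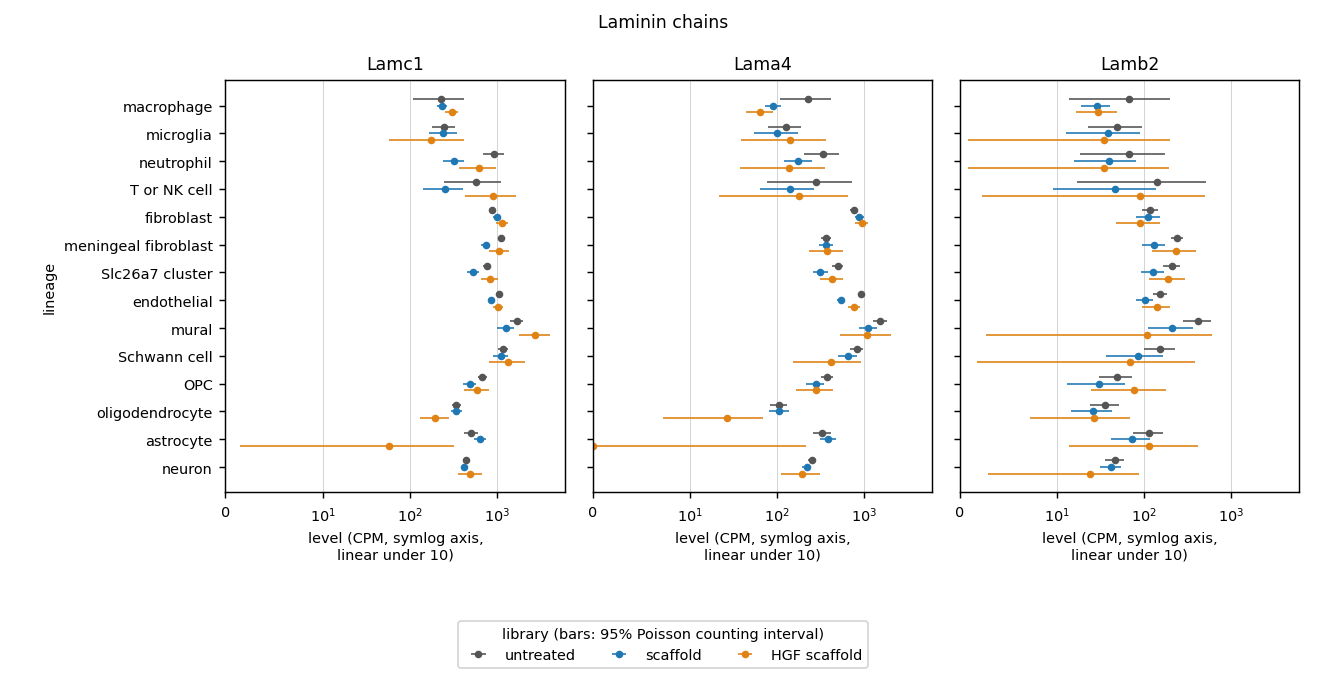
Level of Lamc1, Lama4 and Lamb2 in CPM on a symmetrical log axis (linear under 10) for each lineage; points are libraries and bars are 95% Poisson intervals for counting error. Mural points are furthest right for Lamc1 and Lama4 in each library, and macrophage, microglia and oligodendrocyte points are among those toward the left. The untreated and scaffold bars are apart in some rows, for example endothelial for Lama4 and meningeal fibroblast for Lamc1 and Lamb2.

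The scaffold and untreated libraries were compared in the 10 lineages with at least 50 nuclei in both. A gene was measured in a lineage where the libraries summed to 20 UMIs or more, and called higher or lower when its ratio of levels, set against the median gene of that lineage, passed 2-fold and its counting interval lay on 1 side of no change. Of 163 measured pairs of gene and lineage, 33 were higher (20.2%) and 11 lower (6.75%), against 6.23% and 3.52% of the pairs over all genes. In single lineages that background ran from 2.93% to 7.62% higher and from 1.96% to 6.17% lower. The beta 2 integrin chains made up most of the higher calls: Itgam, Itgal and Itgb2 were higher in 24 of 24 measured pairs outside microglia-like nuclei. The other integrin and laminin genes were higher in 9 of 136 pairs (6.62%), near the background, and lower in 11 (8.09%), above it. All 44 calls were integrins. Thinned to 500 UMIs per nucleus, 9 of 75 pairs were higher and 5 lower. Without the nuclei that may be mixtures, 34 of 142 were higher and 7 lower.

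Itgam, the alpha chain of the complement receptor CR3, was 202 CPM in untreated (9 UMIs), 929 in scaffold and 857 in HGF scaffold macrophage-like nuclei. In microglia-like nuclei it was 279, 389 and 176 CPM, and the ratio of scaffold to untreated did not pass 2-fold (log2 0.47, interval -0.12 to 1.06). In every other lineage compared, scaffold Itgam was higher. In endothelial-like nuclei Itgam was 25.4 untreated, 328 scaffold and 315 HGF scaffold CPM, a log2 ratio of scaffold to untreated of 3.63 (2.98 to 4.37). Fibroblast-like nuclei had 32.6, 279 and 185 CPM (3.05, 2.39 to 3.76). Neuron-like nuclei had 27.4, 218 and 72.2 CPM (2.79, 2.30 to 3.32). Schwann-like nuclei had 3 Itgam UMIs in the untreated and 36 in the scaffold library (4.42, 2.75 to 6.76).

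Itgal, the alpha chain of the lymphocyte receptor LFA-1, was higher in 8 of the lineages. It was 389 CPM in scaffold and 446 CPM in HGF scaffold macrophage-like nuclei. In endothelial-like nuclei it was 16.5 untreated, 183 scaffold and 234 HGF scaffold CPM (log2 3.41, 2.59 to 4.35), and in oligodendrocyte-like nuclei 24.6, 146 and 134 (2.44, 1.72 to 3.23). In the Slc26a7 cluster Itgal had 1 UMI in the untreated and 65 in the scaffold library (6.14, 3.61 to 11.46). Itgb2, the shared beta chain, was higher in 7 lineages, among them endothelial-like (7.62 untreated, 115 scaffold and 89.97 HGF scaffold CPM; 3.86, 2.69 to 5.34) and OPC-like nuclei, the oligodendrocyte precursors (15.5, 108 and 30.8; 2.70, 1.47 to 4.14). In macrophage-like nuclei Itgb2 was 225, 239 and 227 CPM.

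**Figure D3:**
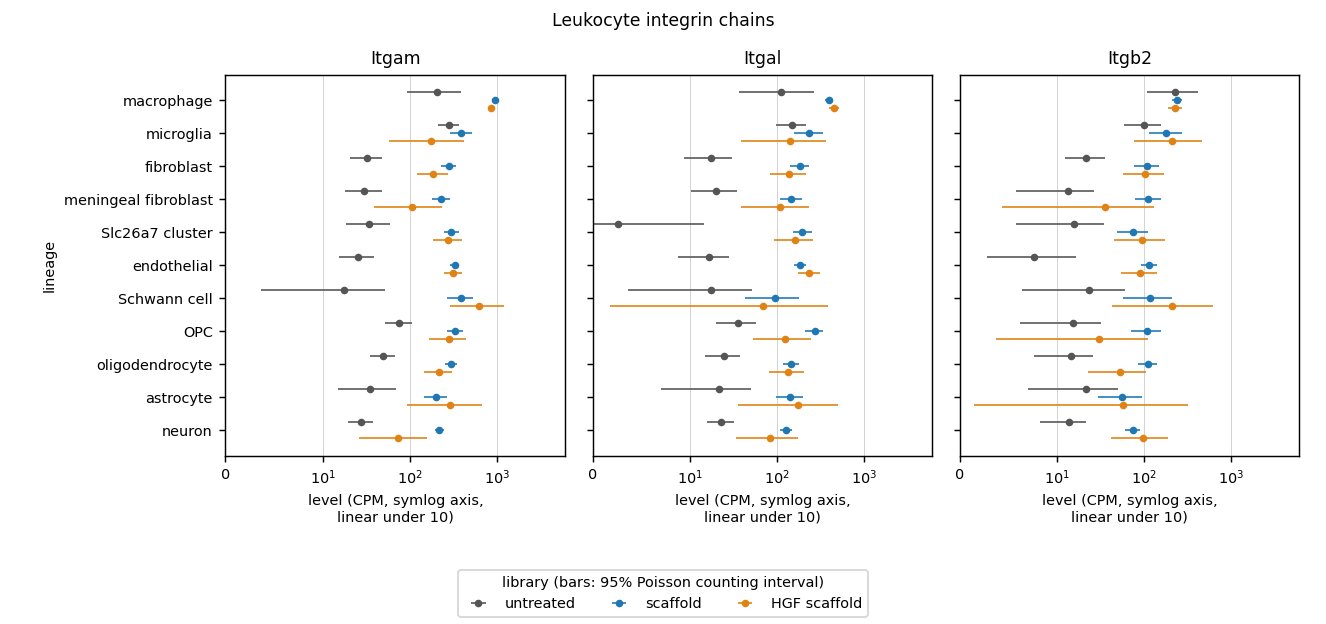
Level of Itgam, Itgal and Itgb2 in CPM on a symmetrical log axis (linear under 10) in 11 lineages; points are libraries and bars are 95% Poisson intervals for counting error. Outside macrophage and microglia the untreated points lie left of the scaffold points in every row, and the HGF scaffold points lie mostly beside the scaffold points.

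Markers of macrophages moved with these chains. Over the 9 lineages compared other than microglia-like nuclei, the summed level of the 3 chains was 49.6 to 126 CPM in the untreated and 395 to 707 CPM in the scaffold library, which is 25.4% to 45.4% of the scaffold macrophage-like level. The 22 macrophage markers found under their own symbol summed to 1091 to 3522 CPM untreated and 3540 to 6360 CPM scaffold, or 28.9% to 51.8% of the scaffold macrophage-like level. Of the 22, 18 to 22 had a UMI in an untreated and 20 to 22 in a scaffold lineage; those at 0 in a scaffold lineage were Ms4a7 and Cd14 in Schwann-like nuclei, F13a1 in the Slc26a7 cluster and Cd163 and Csf2rb in astrocyte-like nuclei. Per lineage, the integrin sum was 5.04 to 12.6 times higher in the scaffold library, and the marker sum 1.62 to 5.10 times. Among the 22 markers is Fn1, also counted below as a matrix ligand, which was higher in 2 and lower in 1 of 10 lineages. There were 1.23 to 4.0 Itgam UMIs per Itgal UMI in the 9 scaffold lineages and 2.39 in scaffold macrophage-like nuclei (2.12 to 2.69). Only Schwann-like nuclei, with 4.0 (1.89 to 9.44), lay above the macrophage-like value. Oligodendrocyte-like nuclei had 2.02 (1.55 to 2.67). The rest of the 9 had 1.23 to 1.80, from OPC-like (0.886 to 1.71) to endothelial-like nuclei (1.47 to 2.20) of the scaffold library. Macrophage-like nuclei were also a larger share of that library (20.8% against 1.96%). Their part in the result was not tested.

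**Figure D4:**
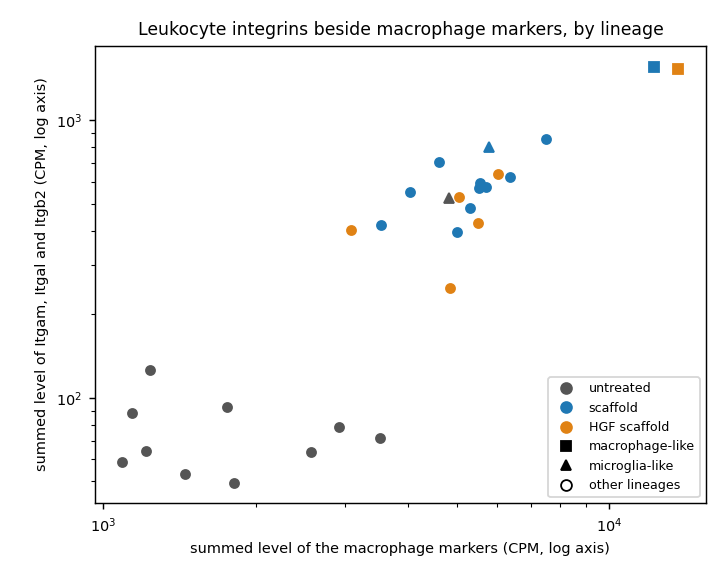
Summed level of Itgam, Itgal and Itgb2 (vertical, CPM, log axis) against the summed level of 22 macrophage markers (horizontal, CPM, log axis); each point is 1 lineage of at least 50 nuclei in 1 library. Untreated lineages other than microglia lie at the lower left, at 49.6 to 126 CPM of the integrins, scaffold and HGF scaffold lineages lie above them, and macrophage-like nuclei lie at the top right.

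Among the other leukocyte and fibronectin receptors, Itga4, whose product binds VCAM-1 and fibronectin, was higher in 3 lineages. It was 22.9 untreated and 91.3 scaffold CPM in endothelial-like (1.94, 1.18 to 2.77), 42.1 and 154 in fibroblast-like (1.82, 1.16 to 2.50), and 20.9 and 68.8 in neuron-like nuclei (1.52, 0.90 to 2.17). Itga5, the fibronectin receptor chain, was higher in OPC-like (19.9 and 99.9 CPM), oligodendrocyte-like (17.2 and 80.8 CPM) and meningeal fibroblast-like nuclei (26.8 and 103 CPM), with log2 ratios of 2.23, 2.11 and 1.90. Endothelial-like nuclei, where untreated Itga5 was highest, had 126 and 154 CPM and no call. In scaffold macrophage-like nuclei Itga4 was 109.9 and Itga5 173 CPM. Single calls were Itgb3, the partner of alpha V on vitronectin, in fibroblast-like nuclei (23.1 and 61.5 CPM), Itga6 in the Slc26a7 cluster (47.7 and 111 CPM) and Itga7 in neuron-like nuclei (6.48 and 17.9 CPM). The call of Itga4 in neuron-like nuclei was lost without possible mixtures (log2 0.52), that in fibroblast-like nuclei (0.53) and that of Itga5 in oligodendrocyte-like nuclei (0.96) with each library clustered alone, and that of Itgb3 with each nucleus given equal weight (0.01) or a marker score (0.41). The call of Itga6 was lost with the integrin and laminin genes among those clustered on (0.74), and that of Itga7 held in 6 of 9 alternative settings.

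The lower calls were led by the collagen receptors. Itga11 in fibroblast-like nuclei had 253 untreated and 44 scaffold UMIs, a fall from 344 to 123 CPM (log2 -1.53, -2.03 to -1.07), with 240.1 CPM in the HGF scaffold library. It was also lower in endothelial-like (81.3 and 22.8 CPM; -1.89, -2.71 to -1.13) and neuron-like nuclei (36.0 and 5.23 CPM; -2.98, -4.37 to -1.84). Itga10, a collagen receptor chain known from cartilage, fell in fibroblast-like nuclei from 80.1 CPM (59 UMIs) to 11.2 (4 UMIs), a log2 ratio of -2.89 (-4.82 to -1.46), with 20.6 CPM (3 UMIs) in the HGF scaffold library. Both genes were thus higher in the untreated than in the scaffold fibroblast-like nuclei. Col2a1, Acan and Col11a1 were among the genes leading the fibroblast-like cluster, beside Tnc and Hmcn1. Whether the makeup of this lineage differed between the libraries was not tested. The 17 fibroblast markers found summed to 24992 CPM in untreated, 14193 in scaffold and 21377 in HGF scaffold fibroblast-like nuclei, and the scaffold level was 0.568 times the untreated one; for Itga10 and Itga11 together it was 0.316 times. In endothelial-like and neuron-like nuclei the fibroblast markers had 0.599 and 0.580 times the untreated level. All 17 had a UMI in each of these lineages in the untreated and scaffold libraries. Their part in the result was not tested. With lineages set by a marker score per nucleus, the Itga11 ratio in fibroblast-like nuclei was -0.68 and no longer called, and with each library clustered alone it was -4.26.

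The Slc26a7 cluster had 3 lower integrins: Itga8 (337 to 120.5 CPM; -1.55, -2.10 to -1.03), Itga1 (191 to 78.3; -1.36, -2.06 to -0.69) and Itgb8 (363 to 187; -1.03, -1.49 to -0.59). Their HGF scaffold levels were 188, 132 and 292 CPM. The Itgb8 call was just past 2-fold and held in 5 of 12 alternative settings, and the Itga1 call in 9 of 12, with a ratio of -0.92 with each library clustered alone. Itgb8 also fell in Schwann-like nuclei, from 897 to 402 CPM (-1.18, -1.73 to -0.66), and there it was 1524 and 515 CPM in the Scn7a cluster (1269 to 1814 and 345 to 739). In the myelin cluster it was 308 and 236 CPM, with intervals that overlap (203 to 448 and 108 to 448). The Schwann call held in 11 of 13 settings and was lost without possible mixtures (-0.86). Itgb5 fell in OPC-like (146 to 53.8 CPM; -1.54, -2.48 to -0.69) and microglia-like nuclei (285 to 132; -1.12, -1.999 to -0.30). Each of these 2 calls held in 11 of 12 settings; the first was lost without possible mixtures (-1.14) and the second with a marker score (-0.84). Itgae, which binds E-cadherin as a partner of beta 7, was lower in neuron-like nuclei on 23 and 10 UMIs (16.6 and 7.48 CPM), a call that held in 8 of 10 settings and was lost without the highest Scrublet scores (-0.77).

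**Figure D5:**
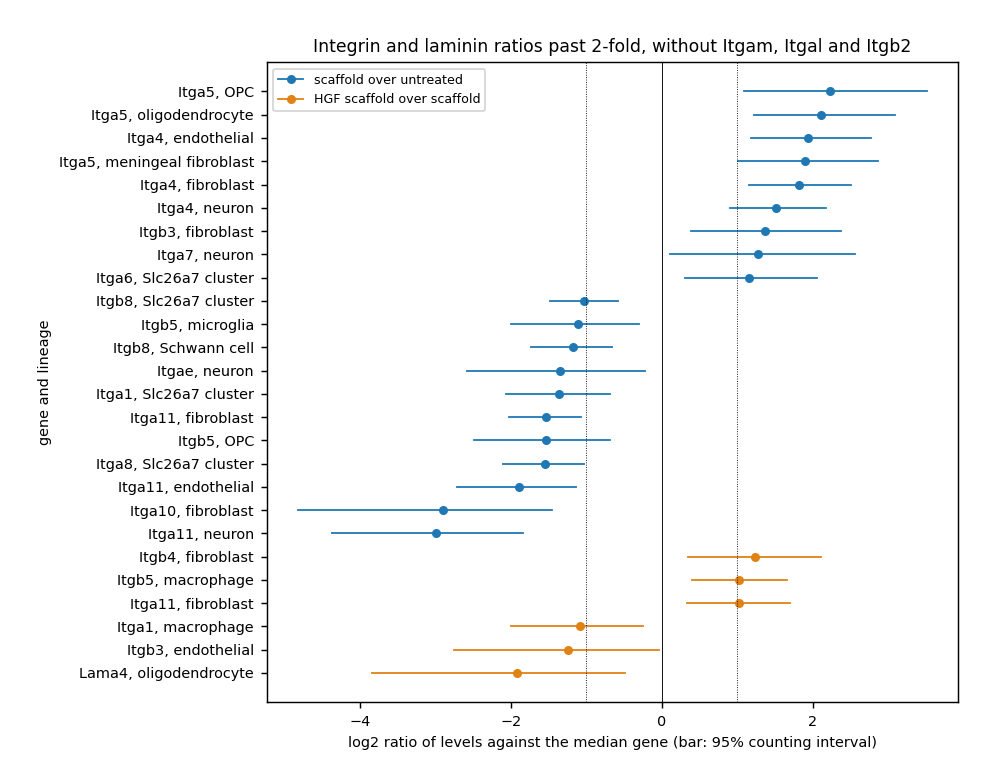
Log2 ratio of levels against the median gene, with 95% counting intervals, for each gene and lineage past 2-fold other than Itgam, Itgal and Itgb2; scaffold over untreated in blue, HGF scaffold over scaffold in orange. The widest gaps are the falls of Itga10 in fibroblast-like and Itga11 in neuron-like nuclei, at -2.89 and -2.98, and all but 1 of the orange calls lie between -1.25 and 1.23.

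No laminin pair passed 2-fold. Of 36 measured laminin pairs in these lineages, 32 had a log2 ratio under 0 (88.9%, against 50% of the pairs over all genes) and 15 had an interval wholly under 0 (41.7%, against 11.6%). An interval wholly above 0 was found for 0 of the 36, against 11.6% over all genes. The 36 pairs came from only 6 genes in the same 2 libraries, with Lamc1 and Lama4 measured in 10 lineages each. They are therefore not 36 separate observations. Laminin pairs held more UMIs, a median of 176.5 against 64, and so had narrower intervals. Their median ratio was -0.54, where the median over all genes is 0 by the scaling. In endothelial-like nuclei Lama5 had a log2 ratio of -0.92 (-1.52 to -0.34) and Lama4 of -0.84 (-1.01 to -0.67). Lamb2 had -0.92 in meningeal fibroblast-like nuclei (-1.45 to -0.42) and Lamc1 -0.63 (-0.85 to -0.42). In fibroblast-like nuclei Lamc1 and Lama4 had ratios of 0.15 (-0.04 to 0.34) and 0.17 (-0.03 to 0.38), and in astrocyte-like nuclei of 0.34 (-0.02 to 0.70) and 0.21 (-0.24 to 0.67). Lama4 in meningeal fibroblast-like nuclei had -0.05 (-0.39 to 0.27), unlike the other 4 laminin chains measured there, whose intervals lay under 0.

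Over all nuclei of a library, where fewer cells of a type and less RNA per cell cannot be told apart, 5 of 24 measured genes were higher in the scaffold than in the untreated library (6.4% of all genes) and 3 lower (4.11%). Itgam was 45.1 untreated, 394 scaffold and 451 HGF scaffold CPM, Itgal 26.7, 208 and 257, and Itgb2 19.0, 121 and 135. Itga4 (35.1, 84.8 and 119 CPM) and Itga5 (47.8, 99.8 and 103 CPM) were the others that were higher. The lower genes were Itga11 (73.8, 17.3 and 40.0 CPM), Itga10 (18.0, 2.59 and 6.89 CPM) and Itgb6, an epithelial partner of alpha V. Itgb6 had 34 UMIs in the untreated and 0 in the scaffold library, at least 11.04-fold lower when the scaffold library is set at a floor of 3 UMIs. Of the 34 UMIs, 27 lay in 6 skeletal muscle-like nuclei of the untreated library, a lineage with 0 nuclei in the scaffold library.

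The HGF scaffold and scaffold libraries, which differ by HGF, were compared in 6 lineages with at least 50 nuclei in both: macrophage-like, fibroblast-like, meningeal fibroblast-like, endothelial-like and oligodendrocyte-like nuclei and the Slc26a7 cluster. Of 99 measured pairs, 3 were higher in the HGF scaffold library (3.03%) and 3 lower (3.03%), against 2.77% and 3.02% over all genes, so the calls were at the background. This comparison shares the scaffold library with the one above. The higher pairs were Itga11 in fibroblast-like nuclei (123 to 240.1 CPM; log2 1.02, 0.33 to 1.69), Itgb4 in fibroblast-like nuclei (69.8 to 158 CPM; 1.23, 0.34 to 2.10) and Itgb5 in macrophage-like nuclei (43.5 to 88.1 CPM; 1.02, 0.39 to 1.66). The lower pairs were Itga1 in macrophage-like (62.4 to 29.4 CPM; -1.08, -1.997 to -0.25), Itgb3 in endothelial-like (66.1 to 26.99 CPM; -1.25, -2.76 to -0.04) and Lama4 in oligodendrocyte-like nuclei (105 to 26.7 CPM, the latter on 4 UMIs; -1.92, -3.85 to -0.49). Each of the 6 lost its call in at least 1 alternative setting: the Itga11 ratio was 0.21 with each nucleus given equal weight, the Itgb4 ratio 0.10 at a Leiden resolution of 2, the Lama4 ratio -0.32 with each library clustered alone, and the Itgb5 ratio -0.14, the other direction, with a marker score per nucleus.

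The leukocyte chains did not pass 2-fold between these libraries. Their log2 ratios in macrophage-like nuclei were -0.11 for Itgam (-0.27 to 0.06), 0.21 for Itgal (-0.03 to 0.45) and -0.06 for Itgb2 (-0.39 to 0.26), so a 2-fold difference lies outside all 3 counting intervals. In the 5 other lineages 0 of 15 pairs were called. Of these 15 ratios 13 lay under 0, with 0 intervals wholly under 0. Of the 2 macrophage-like clusters, the one led by Arg1, Met and Msr1 had 996 scaffold and 977 HGF scaffold CPM of Itgam, and the one led by Lyz2 and Mmp13 had 469 and 386. The order of the clusters was the same in both libraries, and the intervals of the 2 clusters did not overlap (931 to 1064 against 358 to 604 in the scaffold library, 884 to 1078 against 276 to 526 in the HGF scaffold library). The Lyz2 cluster also held more of the fibroblast markers, 10301 scaffold and 12992 HGF scaffold CPM against 1359 and 1581 in the Arg1 cluster, and their part in its lower Itgam was not tested. Over all nuclei 2 of 23 measured genes, Itga10 (10 HGF scaffold UMIs) and Itga11, were higher in the HGF scaffold library (1.71% of all genes) and 0 lower (3.64%). Their log2 ratios were 1.39 (0.07 to 2.64) and 1.19 (0.70 to 1.67). The Itga11 ratio over all nuclei was 0.59 with each nucleus given equal weight.

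Genes that work with integrins and laminins were counted in 5 lists, to be read against the 6.23% higher and 3.52% lower over all genes given above, and 2.77% and 3.02% for the HGF scaffold over the scaffold library. Of the list on focal adhesion and integrin activation, the cytoplasmic proteins that switch integrins on and tie them to actin, 29 genes were measured in the scaffold and untreated libraries and 37 of 237 pairs were higher (15.6%) and 2 lower (0.844%). Ptk2b, the kinase PYK2, was higher in 9 of 10 lineages and Fermt3, the kindlin of blood cells, in 8 of 10. Ptk2b in OPC-like nuclei was 28.7 untreated and 204 scaffold CPM (2.73, 1.83 to 3.73), and in the Slc26a7 cluster 31.8 and 202 (2.59, 1.70 to 3.62). Fermt3 in endothelial-like nuclei was 33.0 and 215 CPM (2.65, 2.05 to 3.299). The median ratio of the list was -0.03. Of the immune ligands of integrins, 9 of 45 pairs were higher (20%) and 2 lower (4.44%, near the background); the higher ones were 5 of Icam1, the ligand of LFA-1, and 4 of C3, whose fragment iC3b binds CR3. Icam1 was 21.6 and 69.7 CPM in endothelial-like nuclei (1.63, 0.83 to 2.51), and in neuron-like nuclei Icam1 and C3 had 6 UMIs each in the untreated and 48 and 50 in the scaffold library. The median of this list was -0.27. The macrophage marker values above stand beside these counts too, and their part in them was not tested.

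Of the matrix ligands, 16 of 124 pairs were higher (12.9%) and 23 lower (18.5%), against 6.23% and 3.52% over all genes, with a median of -0.11. Spp1, osteopontin, was higher in 10 of 10 lineages, for example 112 untreated and 1215 scaffold CPM in endothelial-like nuclei (3.38, 3.07 to 3.72); it is on the list of macrophage markers and leads a macrophage-like cluster. It was 82.1 and 1016 CPM in Schwann-like nuclei and 90.2 and 1000 CPM in the Slc26a7 cluster. Tnc, tenascin C, was lower in 9 of 10 lineages; it leads the fibroblast-like cluster. The summed fibroblast markers had 0.568 to 0.976 times their untreated level in the 10 lineages, and their part in this result was not tested. Between the HGF scaffold and scaffold libraries 8 of 66 pairs of this list were higher (12.1%, against 2.77%) and 0 lower (against 3.02%), with a median of 0.11. Among them were Tnc in fibroblast-like nuclei (304 to 782 CPM, log2 1.41, 1.02 to 1.80) and Thbs2 in endothelial-like nuclei (43.2 to 130.5, log2 1.64, 0.88 to 2.38). Tgfb2 in the Slc26a7 cluster was another (93.4 to 226, log2 1.31, 0.48 to 2.12). Thbs2 is on the list of fibroblast markers. From the scaffold to the HGF scaffold library these markers summed to 14193 and 21377 CPM in fibroblast-like and 3560 and 6609 in endothelial-like nuclei. In the Slc26a7 cluster they went the other way, 4708 and 3975 CPM. Their part in these calls was not tested.

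Of the basement membrane partners of laminin, 2 of 132 pairs were higher (1.52%) and 18 lower (13.6%) in the scaffold library, against 6.23% and 3.52% over all genes, with a median of -0.27. Hmcn1, hemicentin, made up 8 of the 18; in fibroblast-like nuclei it fell from 2835 to 774 CPM (-1.92, -2.11 to -1.74) and in astrocyte-like nuclei from 427 to 132 (-1.71, -2.34 to -1.11). It is among the leading genes of the fibroblast-like cluster, and the part of the fibroblast markers, at 0.568 to 0.976 times their untreated level, was not tested here either. Col18a1, a collagen of vessel basement membranes, fell in OPC-like nuclei from 113 to 30.7 CPM (-1.97, -3.26 to -0.89). In the HGF scaffold library 4 of 75 pairs were higher (5.33%, against 2.77%) and 10 lower (13.3%, against 3.02%; median -0.02), with Col4a3 lower in endothelial-like (68.5 to 18.0 CPM) and macrophage-like nuclei (69.3 to 21.5 CPM) and Egflam, pikachurin, lower in endothelial-like nuclei (78.1 to 31.5 CPM).

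Of the laminin receptors other than integrins, with the dystroglycan complex, 3 of 154 pairs were higher (1.95%) and 12 lower (7.79%) in the scaffold library, against 6.23% and 3.52% over all genes (median -0.26). Dmd, dystrophin, fell in fibroblast-like nuclei from 105 to 22.3 CPM (-2.28, -3.54 to -1.23), while Sntb1, a syntrophin, rose in oligodendrocyte-like nuclei from 43.0 to 123 (1.39, 0.78 to 2.02). In the HGF scaffold library 2 of 78 pairs were higher (2.56%, near the background of 2.77%) and 9 lower (11.5%, against 3.02%; median 0.16). The 9 lower pairs came from few genes: Sgcd and Sgcz with 3 each, Sntg1 with 2 and Dag1 with 1. Sntg1 was lower in endothelial-like (72.1 to 22.5 CPM) and macrophage-like nuclei (48.5 to 15.7 CPM), and Dtnb, a dystrobrevin, was higher in meningeal fibroblast-like nuclei (184 to 499 CPM). Sgcz is among the leading genes of the neuron-like cluster. Neuron-like nuclei were 9.50% of the scaffold and 3.86% of the HGF scaffold nuclei, and the part of this in the Sgcz calls was not tested.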

How the data were processed

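Nuclei were isolated with a kit, and libraries were made with 10x Genomics 3′ chemistry and sequenced on a HiSeq X, per the labels' protocols. Cell Ranger 6.0.1 is named in the submitters' processing notes; the genome build is not given in the sources used here. The authors deposited, for each of 3 libraries, a matrix of UMI counts per gene and nucleus, with a minimum of 500 or 501 UMIs per nucleus. The genes, lists and comparisons were chosen with earlier results of these data known.

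Nuclei with at least 200 genes and at most 5% mitochondrial UMIs were kept (5322). After scaling each nucleus to 10000 and taking logs, the 3 libraries were clustered together without integration (scanpy 1.11.5: 2000 variable genes, 30 components, 15 neighbours, Leiden resolution 1), giving 19 clusters. A cluster took the name of the marker list with most genes among its top 100 by fold, with at least 3 markers. Of 296 marker entries, 264 were found, and of 128 gene list entries 109. Scrublet called 2 nuclei (0.0376%), so doublets were kept. UMIs were summed per lineage and library and divided by the total (CPM), with exact Poisson intervals; total UMIs of the kept nuclei were 5947483, 5791715 and 1450757. Ratios were divided by the median ratio of all genes measured, with exact conditional (Clopper-Pearson) intervals; that median moved levels by 0.20 (log2) in neuron-like and 0.13 in oligodendrocyte-like nuclei. With 1 library per group no test was possible. Counting and calling were tested on simulated data. Every gene with at least 20 UMIs was eligible to be named, with up to 30 called pairs, most UMIs first, and up to 3 called genes per list. Alternatives covered scaling, UMI minimum, clustering, doublets, depth and weighting. Promoters came from RefSeq. Values of a few genes are not reported here.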

Additional observations from a re-analysis of the deposited data

How the results depend on the processing

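No paired analysis was possible because each group has 1 library. Between the scaffold and untreated libraries, 33 pairs were higher; thinned to 500 UMIs per nucleus 9 were, of 75 still measured, and the other 12 planned settings gave 25 to 37. The 11 lower pairs became 21 with each library clustered alone, 7 without possible mixtures and 5 thinned. Between the HGF scaffold and scaffold libraries, the 3 higher pairs became 1 with TMM factors, 6 with each library clustered alone, 0 with a marker score per nucleus and 1 thinned. The 3 lower pairs became 5 not centred, 8 with TMM, 9 clustered alone, 5 with a marker score, 1 without possible mixtures, 7 without the highest Scrublet scores, 1 thinned and 14 with nuclei weighted equally. Thinning leaves fewer pairs to measure; otherwise the cause was not tested. The count of genes with 1 highest lineage was 5 to 7. Of 59 called ratios, 58 kept their direction in every planned setting that gave a value, and the exception was Itgb5 in macrophage-like nuclei at -0.14 with a marker score. Itgam, Itgal and Itgb2 kept their calls against the untreated library in every lineage and setting that measured them. Leaving the Lyz2 cluster out of the macrophage-like class, chosen after seeing the data, gave 33, 11, 4 and 3 pairs. The HGF scaffold library had 906 nuclei, so 5 of those 10 lineages had under 50 nuclei there and were not compared.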
